A study of Mus musculus with 2 samples.

Results

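Genes of the extracellular matrix, 41 of the 31053 features counted, were followed in single cells of the mouse heart after sham surgery and after transverse aortic constriction (TAC). They are a listed set of collagens, matrix glycoproteins, proteoglycans and matrix enzymes, and all 41 were found by symbol in both count matrices. The extracellular matrix of the heart is a meshwork of fibrillar collagens, elastic fibres and basement membrane that holds the muscle cells in register and carries force between them. Fibroblasts make most of it, endothelial cells contribute to the basement membrane of vessels, and macrophages take part mainly through proteases, protease inhibitors and fibronectin. When the ventricle pumps against a raised load, fibroblasts can become activated and secrete more matrix, and the matricellular proteins, which act on cells rather than bear load, are known to be low in the resting heart and high in scars.

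The animals were wild-type C57BL/6 mice aged 10 weeks, and TAC is an operation that narrows the aortic arch and raises the pressure load on the left ventricle. The sham and TAC groups held 6 mice each and gave 1 library each of cells sorted for CD45, the surface protein of leukocytes. Mice cannot be told apart within a library, so library and condition cannot be told apart and no test between them was possible. The intervals given are exact 95% intervals, and they cover counting error only.

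Each captured transcript is counted by its unique molecular identifier (UMI). There were 87532984 UMIs in 11941 sham barcodes and 97983083 UMIs in 7975 TAC barcodes. Of these, 4169 and 5601 barcodes passed limits of 300 genes and 10% mitochondrial UMIs. After that step, the share of mitochondrial UMIs and the depth differed between the libraries in every class described here. In fibroblast barcodes the median was 7.41% mitochondrial UMIs and 8921 UMIs in sham against 3.5% and 15038 UMIs in TAC. No doublet caller was run, and 35 barcode sequences occur in both libraries.

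Fibroblast barcodes were those with at least 20 UMIs of Col1a1, Col3a1 and Dcn together per 10000, which gave 221 sham and 251 TAC barcodes, or 5.30% and 4.48% of those kept. These genes are themselves members, so their presence in the class is no result. The limit fell in a gap. The lowest sum inside was 21.8 per 10000 in sham and 24.4 in TAC, the highest outside was 14 and 17.3, and the median inside was 193 and 180. Markers that took no part in the choice, among them Pdgfra and Tcf21, reached 3 UMIs per 10000 in 96.4% of the sham and 99.2% of the TAC fibroblast barcodes. These cells came through a sort for CD45, yet a UMI of its gene, Ptprc, was present in only 18.6% and 17.5% of them, against 92.6% and 96.8% of macrophage barcodes. By their markers they are fibroblasts that a leukocyte sort let through, and their number says nothing of how many the heart held.

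The stretches before 3 genes are shown first, because Postn and Timp1 were among the members with the largest excess in TAC fibroblasts and Efemp1 was among those with the largest deficit. Each is the 250 bases before a RefSeq start (GRCm38.p6), all on the plus strand, written 5′ to 3′. Capitals mark a TATA box (TATAAA) 26 bases before the start of Postn, the letters of a TEAD motif (GGAATG) 247 bases before Timp1, and those of an AP-1 motif (TGANTCA) 154 bases before Efemp1. Postn has 2 RefSeq starts. The window shown is that of the start nearer to the GENCODE gene start, and the other, at chr3:54359017-54359266, holds no TATAAA. The window of Postn is chr3:54360857-54361106, that of Timp1 chrX:20869916-20870165 and that of Efemp1 chr11:28852955-28853204.
Postn: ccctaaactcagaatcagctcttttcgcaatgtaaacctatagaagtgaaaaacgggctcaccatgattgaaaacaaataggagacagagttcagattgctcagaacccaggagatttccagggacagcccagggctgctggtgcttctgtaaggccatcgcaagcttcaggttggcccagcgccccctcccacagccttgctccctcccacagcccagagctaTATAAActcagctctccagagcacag
Timp1: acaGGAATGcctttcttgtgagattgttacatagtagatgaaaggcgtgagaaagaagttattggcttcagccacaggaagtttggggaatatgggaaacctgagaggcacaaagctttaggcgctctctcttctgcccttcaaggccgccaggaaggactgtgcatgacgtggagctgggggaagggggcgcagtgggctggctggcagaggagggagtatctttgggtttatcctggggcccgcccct
Efemp1: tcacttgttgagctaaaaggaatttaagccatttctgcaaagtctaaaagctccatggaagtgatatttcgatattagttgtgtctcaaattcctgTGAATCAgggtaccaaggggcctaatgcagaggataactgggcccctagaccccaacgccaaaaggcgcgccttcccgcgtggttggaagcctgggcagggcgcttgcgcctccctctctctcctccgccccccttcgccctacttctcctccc

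A window of this kind was at hand for 27 of the 41 members, 12 of them at least 1.5-fold higher in TAC fibroblasts. Both strands were searched. TATAAA was present before 4 members (Col3a1, Ogn, Postn and Tnc), 3 of them among the 12, and before 14.3% of 27025 genes. GGAATG was present before Col3a1, Col6a2, Ogn and Timp1, 2 of them among the 12, and before 14.4% of genes. TGANTCA was present before Col6a1 and Efemp1, neither among the 12, and before 7.82% of genes. A match describes letters and not a bound site.

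Matrix transcripts took a larger share of fibroblast RNA in the TAC library, and the direction differed by role. Together the 41 genes made up 4.44% of fibroblast UMIs in sham and 6.74% in TAC, a ratio of 1.52 (1.51 to 1.53). Without the 3 genes that chose the barcodes the shares were 2.67% and 5.0%, a ratio of 1.87 (1.85 to 1.89). Levels below are UMIs of the gene per 1000000 UMIs of the class (CPM), and a gene was counted as higher or lower when it differed by at least 1.5-fold with at least 20 UMIs over both libraries. All 41 members passed that minimum. In TAC, 21 were higher, where 10.1% of 10790 genes of these barcodes were, 5 were lower, where 19.9% of genes were, and 15 lay between. All members also had at least 100 UMIs, and among the 6572 genes with that many the shares were 8.84% and 12.3%. The median log2 ratio of the members was 0.66, against -0.11 over all genes. Scaled so that the median gene had no difference, 22 members were higher and 3 lower. The shares over all genes given here are those before this scaling.

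**Figure D1:**
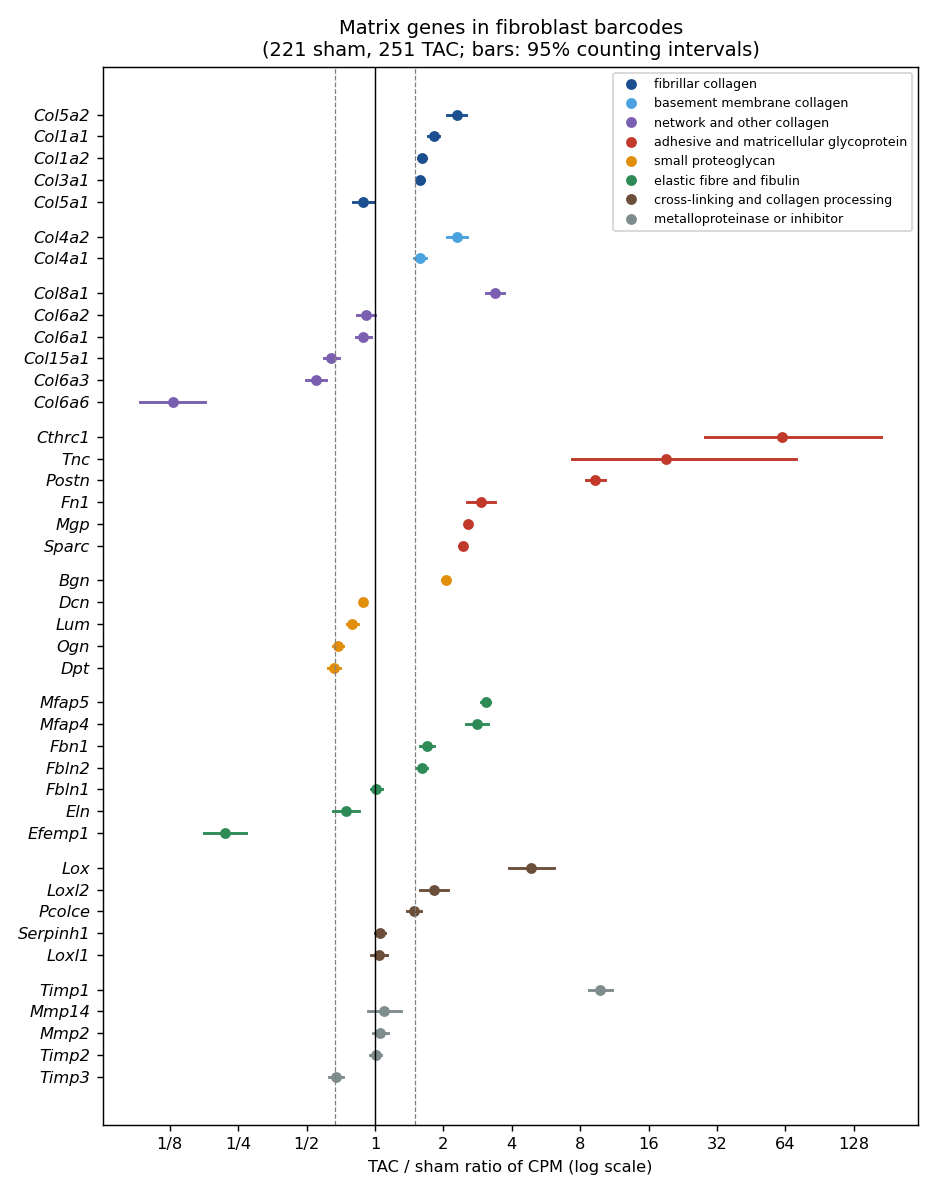
TAC over sham ratio of CPM for each of the 41 matrix genes in fibroblast barcodes (log axis), grouped by role, with 95% counting intervals as bars, a solid line at 1 and dashed lines at 1.5-fold either way. All 6 adhesive and matricellular glycoproteins lie to the right of 1.5-fold, while Col6a6 and Efemp1 lie farthest to the left.

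Adhesive and matricellular glycoproteins set the libraries furthest apart, with 6 of 6 higher in TAC. They supplied 21.3% of the members' UMIs in sham and 37.9% in TAC. Most of this was Mgp, which is grouped here though it is an inhibitor of calcification. Mgp held 15975 of the members' 98300 UMIs in sham and 80857 of 295308 in TAC. Postn encodes periostin, a collagen-binding protein used as a marker of activated cardiac fibroblasts (chromosome 3, 54361109 to 54391037, plus strand, GENCODE on GRCm38). Its level was 208 CPM in sham (189 to 227) and 1932 CPM in TAC (1891 to 1974), a ratio of 9.31 (8.47 to 10.2). A UMI of Postn was present in 22 of 221 sham barcodes and 157 of 251 TAC barcodes. Since TAC barcodes were deeper, each was also thinned to 1000 UMIs, with 1 shallower barcode left out per library, and the shares were then 4.09% and 40.4%. Lymphocyte barcodes, which should not make periostin, held 0 at that depth in both libraries, which at 3 counts allows up to 3.23% of 93 sham and 1.80% of 167 TAC barcodes. At full depth 0 of the 93 and 3 of the 167 held one. Their median depths before thinning were 10671 and 13575 UMIs.

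Cthrc1, a secreted protein with a collagen triple-helix repeat, stood at 2.71 CPM in sham against 168 CPM in TAC (chromosome 15, 39076932 to 39087121, plus strand). The ratio was 62.0 (28.3 to 169), but it rests on 6 sham UMIs. Without the deepest 10% of barcodes in each library it was 11.8. Tnc, which encodes tenascin C, had 4 sham UMIs and 152 TAC UMIs, or 1.81 and 34.7 CPM, a ratio of 19.2 (7.34 to 71.3) that was 6.72 without those deep barcodes. Both genes were all but absent from sham fibroblasts and came from few TAC barcodes, 38 for Cthrc1 and 32 for Tnc. The most abundant gene of this group was Mgp, with 7223 CPM in sham against 18466 CPM in TAC, a ratio of 2.56 (2.51 to 2.60). Sparc, a collagen-binding protein, stood at 1913 and 4648 CPM, a ratio of 2.43 (2.35 to 2.51). Fn1, fibronectin, stood at 104 and 305 CPM, a ratio of 2.92 (2.54 to 3.38). In the TAC library Mgp passed Dcn, which had the highest level of the list in sham. UMIs count captured transcript ends, so an order between genes also carries their capture.

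Fibrillar collagens, the tensile fibres, were higher for 4 of 5 genes. Col1a1 and Col1a2 encode the chains of type I collagen. Col1a1 stood at 692 CPM in sham against 1254 CPM in TAC, a ratio of 1.81 (1.71 to 1.92), and Col1a2 at 1305 and 2097 CPM, a ratio of 1.61 (1.54 to 1.68). Col3a1, the type III chain, stood at 1540 and 2438 CPM, a ratio of 1.58 (1.52 to 1.65). Col1a1 and Col3a1 helped to choose the barcodes, so these values describe the class as chosen. The type V chains, which join type I fibrils as they form, did not share a direction. Col5a2 stood at 248 and 568 CPM, a ratio of 2.29 (2.08 to 2.51), and Col5a1 at 257 and 229 CPM, a ratio of 0.889 (0.802 to 0.988). There were 104 Col5a1 UMIs per 100 of Col5a2 in sham and 40.3 in TAC.

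Basement membrane collagen IV was higher for both its genes, whose chains join in 1 molecule. Col4a1 stood at 628 CPM in sham against 994 CPM in TAC, a ratio of 1.58 (1.49 to 1.68), and Col4a2 at 215 and 491 CPM, a ratio of 2.29 (2.07 to 2.53). These genes lie head to head on chromosome 8 with RefSeq starts 21 bases apart, at 11312826 and 11312805. Fibroblasts held 293 Col4a1 UMIs per 100 of Col4a2 in sham and 202 in TAC, and endothelial barcodes 219 and 211. The other basement membrane genes did not follow them. Of 15 laminins, nidogens and other genes of the list with enough UMIs, 7 were lower and 0 higher, and the median log2 ratio was -0.54. Nid2 stood at 47.0 and 16.2 CPM, 2.90-fold lower, and Lamb1 at 418 and 201 CPM, 2.08-fold lower.

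Network and other collagens went both ways, with 1 higher and 3 lower of 6. Col8a1, a short-chain collagen of vessel walls and fibroblasts, stood at 242 CPM in sham against 818 CPM in TAC, a ratio of 3.38 (3.09 to 3.71). Col6a6, a less common chain of beaded collagen VI, had 187 sham and 48 TAC UMIs (chromosome 9, 105687809 to 105828160, minus strand). Its level was 84.5 and 11 CPM, 7.71-fold lower (5.59 to 10.8). Col6a3, the large chain of collagen VI, stood at 322 and 177 CPM, 1.81-fold lower (1.64 to 2.01), and Col15a1 at 619 and 399 CPM, 1.55-fold lower (1.45 to 1.67). The core chains of collagen VI differed little. Col6a1 had a ratio of 0.888 and Col6a2 of 0.911, with 145 and 142 Col6a1 UMIs per 100 of Col6a2, while Col6a3 went from 63.4 to 39.4 per 100 of Col6a1. The Col6a1 and Col6a2 genes are neighbours on chromosome 10, with no coding gene between them.

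Small proteoglycans, which bind collagen fibrils and set their thickness, supplied 45.9% of the members' UMIs in sham and 29.3% in TAC. Bgn (biglycan) alone was higher, at 1839 CPM in sham against 3770 CPM in TAC, a ratio of 2.05 (1.98 to 2.12). Dcn (decorin) stood at 15525 and 13790 CPM, a ratio of 0.888, and its neighbour on chromosome 10, Lum (lumican), at 1033 and 821 CPM, a ratio of 0.795. Ogn (osteoglycin) had a ratio of 0.686, and Dpt (dermatopontin, grouped here though it is a fibril-binding protein) was 1.51-fold lower, at 870 and 576 CPM.

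Elastic fibre genes and fibulins were higher for 4 of 7 and lower for 1. Mfap5, a microfibril glycoprotein, stood at 885 CPM in sham against 2717 CPM in TAC, a ratio of 3.07 (2.93 to 3.22), and Mfap4 at 180 and 506 CPM, a ratio of 2.81 (2.53 to 3.14). Fbn1, which encodes the microfibril protein fibrillin 1, and Fbln2 had ratios of 1.70 and 1.61. These microfibril genes were thus higher, while Eln, elastin itself, was lower without passing 1.5-fold. It stood at 181 and 135 CPM, a ratio of 0.746 (0.656 to 0.849), and its median barcode at 1.27 and 0 UMIs per 10000. Efemp1, which encodes fibulin 3, was 4.56-fold lower (3.70 to 5.66), with 133 CPM in sham against 29.2 CPM in TAC (chromosome 11, 28853204 to 28926743, plus strand). After thinning, an Efemp1 UMI was present in 13.6% of sham and 1.6% of TAC fibroblast barcodes, and a Col6a6 UMI in 8.64% and 1.6%, with 0 lymphocyte barcodes for either. Fbln1 had a ratio of 1.02.

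Cross-linking enzymes were represented by lysyl oxidases, which join collagen and elastin molecules outside the cell. Lox stood at 38 CPM in sham against 185 CPM in TAC, a ratio of 4.86 (3.88 to 6.17), and Loxl2 at 116 and 211 CPM, a ratio of 1.82 (1.59 to 2.10), whereas Loxl1 had 404 and 420 CPM. Lox UMIs per 100 of Loxl1 were 9.40 in sham and 44.0 in TAC. Pcolce, which speeds the trimming of procollagen, had a ratio of 1.48, just inside the 1.5-fold limit, and Serpinh1, the collagen chaperone, a ratio of 1.05. Of 23 other collagen synthesis and processing genes, 3 were higher and 1 lower. Loxl3, also a lysyl oxidase, stood at 25.8 and 129 CPM (5.02-fold) and Plod2, a lysyl hydroxylase, at 57 and 136 CPM (2.39-fold).

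Of the metalloproteinases and their inhibitors, only Timp1 passed the limit. Timp1, a secreted inhibitor of metalloproteinases, stood at 132 CPM in sham (118 to 149) and 1302 CPM in TAC (1268 to 1336), a ratio of 9.83 (8.74 to 11.1; chromosome X, 20870166 to 20874735, plus strand). With at most 5% mitochondrial UMIs, which leaves 13 sham fibroblasts, its ratio was 3.40. After thinning, 6.82% of sham and 31.2% of TAC barcodes held a Timp1 UMI, and 0 lymphocyte barcodes did. Timp2 had 939 and 945 CPM, Mmp2 a ratio of 1.05, Mmp14 a ratio of 1.10, and Timp3, the inhibitor that binds matrix, 614 and 415 CPM. Timp1 had 14.1 UMIs per 100 of Timp2 in sham and 138 in TAC, so the order of these inhibitors turned over in the sum. In the median TAC barcode Timp2 still led, at 8.68 UMIs per 10000 against 2.61 of Timp1. The 10% of TAC barcodes with most Timp1 held 72.0% of its UMIs.

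The sum over a class can be carried by a few cells, and the fibrillar collagens were an example. In the typical fibroblast barcode the members together took 4.90% of UMIs in sham and 6.55% in TAC (medians). For 30 members the median barcode was above 0 in both libraries, and 13 of these were at least 1.5-fold higher by sum, of which 7 were so by the median barcode too. Mfap5 had the largest median ratio, 4.0, from 4.38 to 17.5 UMIs per 10000. Mgp went from 62.0 to 148 per 10000, Col8a1 had a median ratio of 3.02 and Bgn of 1.99. The collagen I and III genes did not show that breadth. The median ratio was 1.3 for Col1a1, 1.10 for Col1a2 and 0.901 for Col3a1. The 10% of barcodes with most of a gene held 30.4% of Col3a1 UMIs in sham and 51.3% in TAC, and for Col1a2 24.9% and 44.4%. For Bgn they held 28.1% and 29.1%. Barcodes were ranked by raw UMIs of the gene, so depth enters these shares, and no value over all genes stands beside them.

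**Figure D2:**
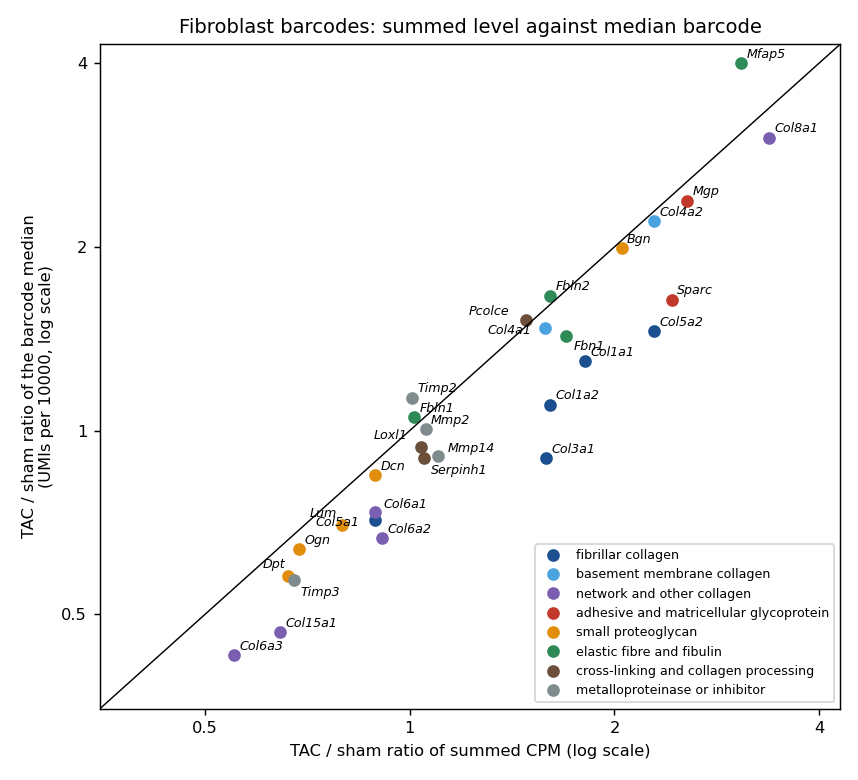
Ratio of the median barcode, in UMIs per 10000, against the ratio of summed CPM, TAC over sham, for members whose median fibroblast barcode was above 0 in both libraries, with both axes logarithmic, the line of equality and colours for roles. Mfap5, Col8a1, Mgp and Bgn lie near or above the line, while Col1a1, Col1a2 and Col3a1 lie under it, with Col3a1 below 1 by the median.

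**Figure D3:**
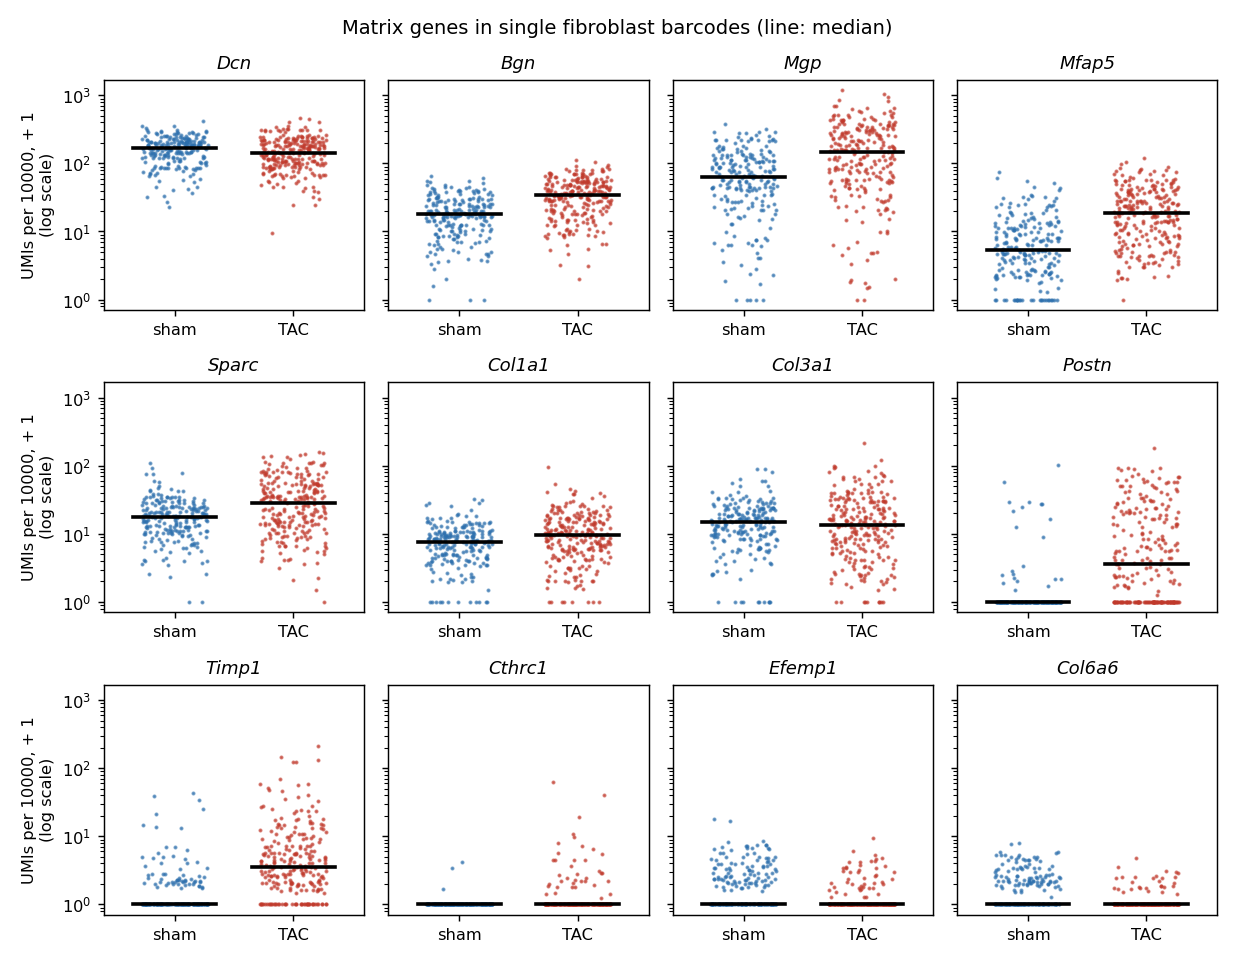
UMIs per 10000, plus 1, of 12 members in each fibroblast barcode of the sham and TAC libraries (log axis), with the median as a line. Mfap5, Mgp and Bgn are shifted as a whole, Postn and Timp1 spread upward from 0 in TAC, and Cthrc1 is present in few barcodes.

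Deep barcodes mattered for these sums. The 23 deepest sham fibroblast barcodes held 19.9% of the class's UMIs but 10.8% of the members' UMIs, and matrix made up 2.40% of their RNA against 4.95% in the rest. In TAC the 26 deepest held 23.1% and 22.8%, with 6.63% and 6.78%. Without the deepest 10%, 15 members were higher and 8 lower, the median log2 ratio was 0.30, and the ratios of Col1a1, Col1a2, Col3a1, Col4a1, Fbln2 and Fbn1 were under 1.5-fold. The shares over all genes given above belong to the whole class, so these counts have no such share beside them. Apart from leaving these barcodes out and thinning, given further in the last section, a part of depth in the other differences was not tested.

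Within TAC fibroblasts, members were set against Postn barcode by barcode. A Postn UMI was present in 37 of the 38 barcodes with Cthrc1 and in 120 of the 213 without it, but those with Cthrc1 were deeper, with median depths of 28321.5 and 13927 UMIs. For Col6a6 and Efemp1, the lower members set against Postn in this way, the order was the opposite. Postn was present in 5 of the 29 barcodes with Col6a6 (median 13095 UMIs) and in 152 of the 222 without it (15684.5 UMIs), and in 17 of the 47 with Efemp1 (14790 UMIs) against 140 of the 204 without it (15140 UMIs). Over 250 TAC barcodes thinned to 1000 UMIs, the members whose counts ranked most like those of Postn were Sparc (Spearman 0.59) and Col8a1 (0.52), followed by Mfap5 and Bgn (0.44 each). Cthrc1 and Tnc (0.17 each), Lox (0.23) and Timp1 (0.27) had lower values. At that depth Cthrc1 was present in 12 barcodes, Tnc in 6 and Lox in 27, against 213 for Sparc. Most barcodes then tie at 0, which limits the value a sparse gene can reach, so these values cannot be ranked against that of Sparc. Among the lower members Col15a1 was at 0.05, Dpt at -0.06 and Col6a3 at -0.07. Col6a6 and Efemp1 were at -0.10, on 4 thinned UMIs each. Of all members, Fbln1 ranked most unlike Postn (-0.19), but it was not among the lower ones, with a TAC over sham ratio of 1.02. These barcodes share a library, and the values are descriptions.

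Matrix and signalling genes outside the list differed in both directions in fibroblasts, where 10.1% of all genes were higher and 19.9% lower. Of 46 other proteoglycan and matricellular genes, 15 were higher and 12 lower, led by Thbs4 (thrombospondin 4), at 29.4 CPM in sham against 556 CPM in TAC (18.9-fold), and Spp1 (osteopontin), at 16.3 and 182 CPM (11.2-fold), while Smoc1 was 5.15-fold lower. Of 7 other collagens 4 were higher and 3 lower. Col9a2 was 4.55-fold higher, on 3 sham UMIs, Col12a1 went from 17.2 to 46.8 CPM (2.72-fold), and Col5a3 from 204 to 76.7 CPM (2.66-fold lower). Among 28 other proteases and inhibitors, 7 were higher and 8 lower. Adamts15, a proteoglycan-cleaving enzyme, stood at 23.1 and 3.43 CPM (6.73-fold lower). Of 25 genes of the TGF-beta pathway, a main driver of matrix synthesis, 7 were higher and 4 lower. Inhba, an activin subunit, stood at 35.3 and 119 CPM (3.37-fold) and Bmp2 at 48.4 and 8.45 CPM (5.73-fold lower). Matrix receptors were higher for 3 and lower for 4 of 21, close to the shares over all genes.

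Genes of activated fibroblasts other than matrix were higher for 10 and lower for 7 of 19. Ddah1 went from 7 to 358 UMIs, or 3.16 to 81.8 CPM, and the proliferation gene Mki67 from 2 to 62 UMIs. Both belong to the 10 higher genes, and levels of the 7 lower ones are not given here, so these values show 1 side of the list. The contractile genes Acta2 and Tagln, shared by myofibroblasts and mural cells, stood at 9.49 and 55.0 CPM and at 24.0 and 170 CPM. The mural gene Myh11 was at 0 in both libraries, and Rgs5 was at 14 and 8.45 CPM. Markers of other cells differed too. Mural genes, Acta2 and Tagln among them, summed to 81.4 CPM in sham and 248 in TAC (2 higher and 4 lower of the 6 with 20 UMIs), and 4 sham and 12 TAC fibroblast barcodes held at least 10 UMIs of Rgs5, Acta2, Tagln and Myh11 per 10000. Endothelial markers summed to 135 CPM in sham against 29.0 CPM in TAC (7 of 7 lower), macrophage markers to 2657 and 1594 CPM (6 of 8 lower, 1 higher), and neutrophil markers to 1764 and 355 CPM (4 of 6 lower, 2 higher). Immediate-early and heat-shock genes, which can respond to tissue dissociation, were lower for 14 of 26 and higher for 0, with a median log2 ratio of -0.62. The part of these in the matrix differences was not tested. With barcodes that carried markers of another class left out, 18 members were higher and 7 lower, with no share over all genes beside these counts.

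Endothelial barcodes (7 endothelial markers together at least 10 per 10000, and below the fibroblast limit) numbered 104 in sham and 410 in TAC. Their most abundant members in both libraries were Sparc, Col4a1, Timp3, Mgp, Col4a2 and Serpinh1. Sparc stood at 1556 CPM in sham against 1477 CPM in TAC, and Col4a1 at 1078 and 1263 CPM, a ratio of 1.17 (1.10 to 1.25). Col4a2 had a ratio of 1.22 (1.10 to 1.34) and Serpinh1 of 1.02. Mgp had a ratio of 0.945, but 98.8% of its sham and 98.2% of its TAC UMIs came from 10% of the barcodes, and its ratio ran from 0.461 to 7.92 over the alternatives. The members summed to 0.578% and 0.684% of UMIs, a ratio of 1.18 (1.15 to 1.22). Only 20 members had 20 UMIs, of which 2 were higher, where 17.6% of genes were, and 6 lower, where 14.9% were. Of the 13 with 100 UMIs, 1 was higher and 3 lower, where 16.3% and 8.62% of genes were.

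Timp3 was the clearest endothelial difference. It stood at 778 CPM in sham (725 to 834) and 1964 CPM in TAC (1918 to 2010), a ratio of 2.52 (2.34 to 2.72), opposite in direction to fibroblasts. Postn had 2 and 36 UMIs. The 6 lower genes were Timp2 (220 and 56.9 CPM), Fn1 (80.5 and 42.1 CPM), Col8a1 (20 and 26 UMIs), Col5a2 (11 and 23 UMIs), Dcn (26 and 51 UMIs) and Eln (54 and 121 UMIs). The interval of Col5a2 includes 1, and Dcn helped to set the fibroblast limit that these barcodes lay under. The C1q limit of macrophages was reached by 27.9% of the sham and 6.59% of the TAC endothelial barcodes, and Timp2 is abundant in macrophages. Without the barcodes that carried markers of another class, the log2 ratio of Timp2 was -0.62 in place of -1.95, and that of Timp3 was 1.35.

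**Figure D4:**
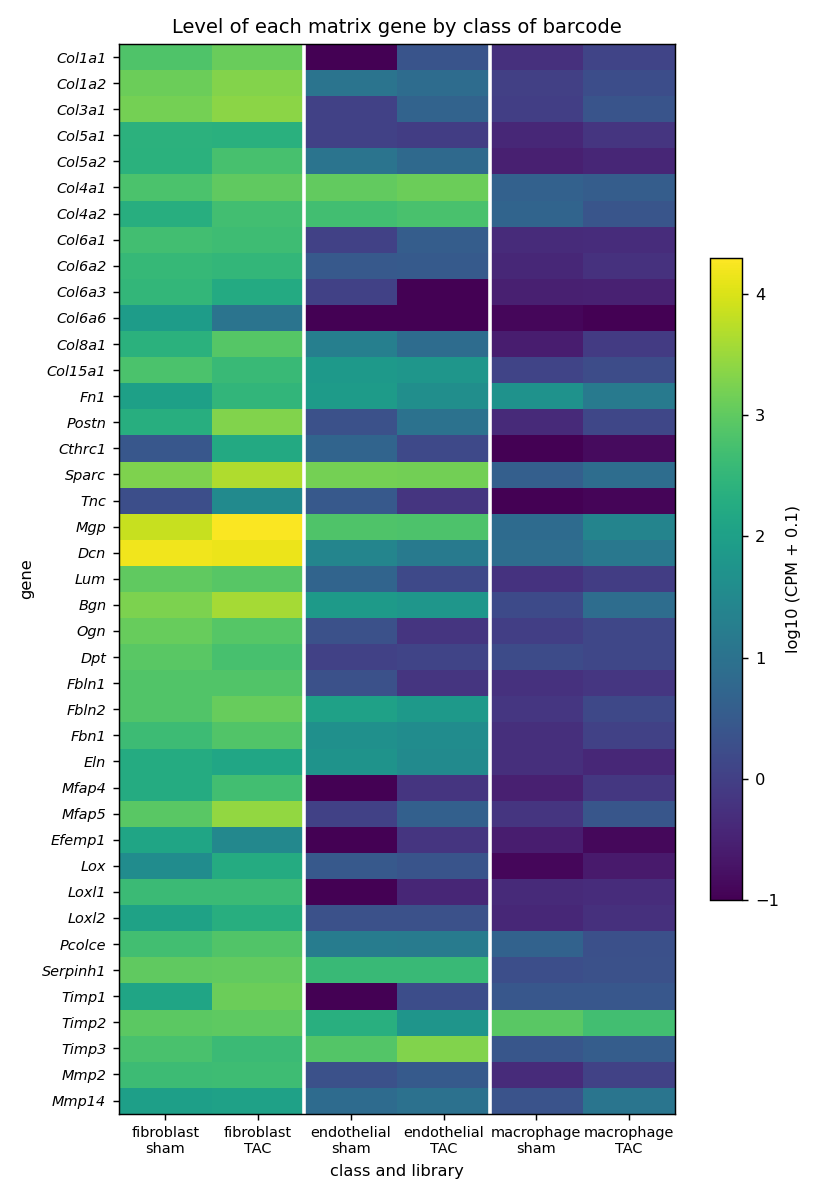
Level of each member as log10 of CPM plus 0.1 in fibroblast, endothelial and macrophage barcodes of the sham and TAC libraries, as colour. Most members are brightest in fibroblasts, and Col4a1, Col4a2, Sparc and Timp3 are bright in endothelial barcodes as well. In macrophages Timp2 stands out in both libraries and Fn1 in sham.

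Macrophage barcodes (C1qa, C1qb and C1qc together at least 50 per 10000, and below the fibroblast and endothelial limits) numbered 3438 in sham and 3585 in TAC. Of these, 80 and 72 also reached the lymphocyte limit, and 172 and 573 reached 20 UMIs of S100a8 and S100a9 per 10000. They held little of the list. The members summed to 0.0986% of UMIs in sham and 0.0614% in TAC, a ratio of 0.623 (0.614 to 0.632), and most of this was 1 gene. Timp2 stood at 882 CPM (872 to 891) and 497 CPM (492 to 503), 1.77-fold lower (1.75 to 1.80), and was present in 97.5% and 92.7% of barcodes. After thinning, 56.7% and 35.5% of macrophage barcodes held a Timp2 UMI. In lymphocyte barcodes, 33.3% and 13.8% did, but 80 of the 93 sham and 72 of the 167 TAC lymphocyte barcodes are macrophage barcodes by C1q as well, so this is no clean background.

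Fn1 was 3.30-fold lower in TAC macrophages (3.05 to 3.57), at 49.4 and 15 CPM, and came from few barcodes, 184 in sham and 203 in TAC. Without the deepest 10% its log2 ratio was -0.97 in place of -1.72. Mmp14, a membrane-bound metalloproteinase that activates Mmp2, had 82 sham and 719 TAC UMIs in macrophages. It stood at 2.19 and 11.1 CPM, a ratio of 5.07 (4.03 to 6.45), and a UMI was present in 50 sham and 424 TAC barcodes. With at most 5% mitochondrial UMIs, which leaves 74 sham macrophages, the direction of Mmp14 turned, with a log2 ratio of -0.57. Pcolce and Col4a2 were lower, at 4.57 and 1.84 CPM and at 5.08 and 2.36 CPM. In all, of 36 members with enough UMIs, 18 were higher, where 14.6% of genes were, and 4 lower, where 22.9% were. With 100 UMIs as the minimum, 9 of 20 were higher and 4 lower, where 13.3% and 19.9% of genes were. Thinned to 1000 UMIs, 4 were higher and the median log2 ratio was -0.05 in place of 0.60. Over all genes of the class it was -0.10, and scaled to that median 23 members were higher and 4 lower. The shares over all genes given here are neither thinned nor scaled.

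These counts were also set against the fibroblast gene Dcn, which stood at 7.59 CPM in sham against 13.2 CPM in TAC macrophages. A value of 1 means as many UMIs per Dcn UMI as in fibroblasts. In TAC macrophages Col1a1 was at 0.942 (0.737 to 1.19), Col3a1 at 0.962 (0.811 to 1.13) and Mfap5 at 0.995 (0.849 to 1.16), and 18 of the 32 members with 20 UMIs lay under 2 and 5 at 5 or above, with a median of 1.69. In sham 7 of 19 lay under 2 and 8 at 5 or above, with a median of 3.62. Some collagens were above 1 in TAC as well, with Col5a1 at 2.55 (1.77 to 3.55), Col4a1 at 3.76 (3.28 to 4.29), Col15a1 at 4.22 (3.43 to 5.15) and Col4a2 at 5.04 (4.25 to 5.94). Sham values were higher for Col4a2, at 48.4 (40.7 to 57.3), and Col4a1, at 14.4, and Pcolce was at 18.8 there. Timp3 was at 8.18 in sham and 8.86 in TAC. Timp2, Fn1 and Mmp14 stood far above 1 in both libraries, while Mmp2 was at 2.36 in TAC (1.82 to 3.01). Timp2 was at 1920 in sham and 551 in TAC, Fn1 at 968 and 51.4, and Mmp14 at 45.9 and 108. Timp1 was at 41.3 in sham and 2.15 in TAC, with 2.67 CPM in both macrophage libraries. Which cells these counts come from was not tested. Beside all of these, neutrophil markers summed to 1687 CPM in sham against 11263 CPM in TAC macrophage barcodes. With barcodes carrying lymphocyte or neutrophil markers left out, 20 members were higher and 4 lower, with no share over all genes beside these counts.

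**Figure D5:**
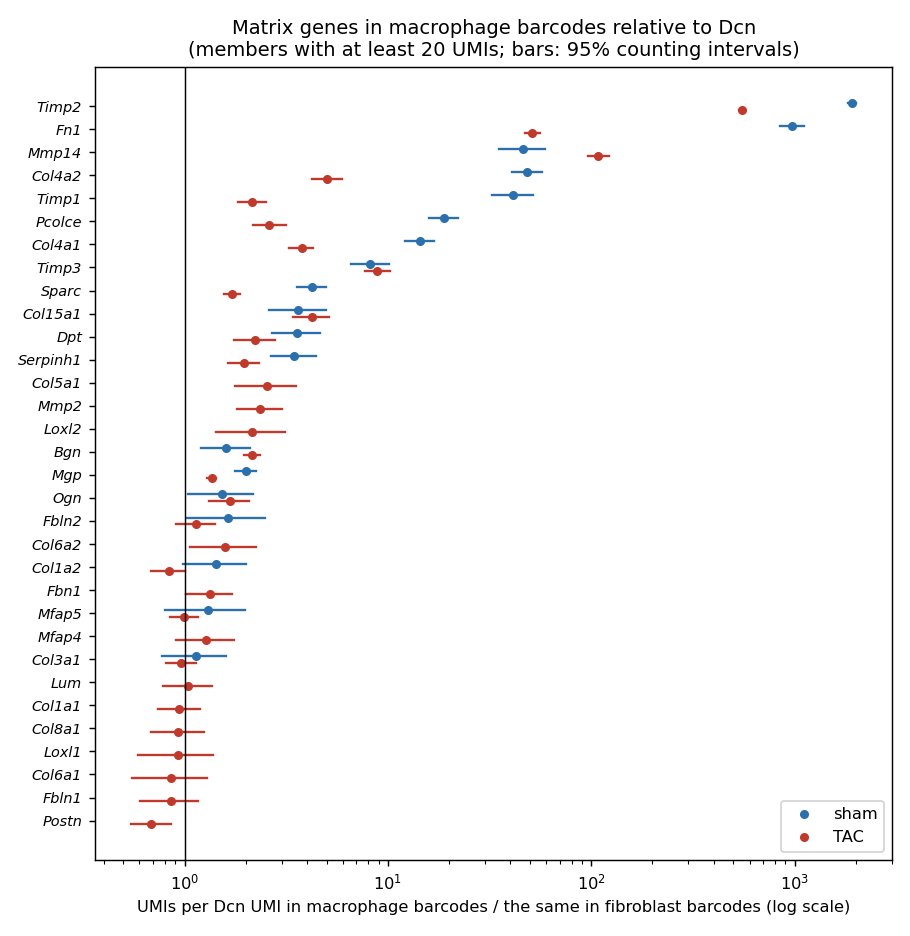
UMIs per Dcn UMI in macrophage barcodes divided by the same in fibroblast barcodes of the same library (log axis), for members with at least 20 UMIs, with 95% counting intervals and a line at 1. Col1a1, Col3a1, Col8a1 and Mfap5 sit near 1 in TAC, Col4a1, Col4a2, Col15a1 and Col5a1 lie above 1, and Timp2, Fn1 and Mmp14 lie far to the right in both libraries. In sham, Col4a2 and Timp1 lie about as far to the right as Mmp14.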

How the data were processed

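Deposited values were raw UMI counts per gene and barcode, made by the authors; the submitters' processing notes name Cell Ranger 3.0 and the mm10 build, and the calling of cells is not stated there. Several droplet runs were pooled per library, per the labels' protocols, but every barcode has the same suffix, so runs could not be separated. Samples were grouped by the labels (1 sham and 1 TAC library).

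Barcodes under 300 genes or over 10% mitochondrial UMIs were left out, and the rest were put in classes by marker sums per 10000 UMIs: fibroblast (at least 20), then endothelial (10), then macrophage (50). Lymphocyte barcodes (T and B cell receptor-associated genes and Ms4a1, at least 10, any C1q) served as background. Counts were summed per class and scaled to CPM with exact Poisson intervals; ratios carry exact conditional binomial intervals, and shares Clopper-Pearson intervals. Log2 ratios add 0.5 UMI. With 1 library per group there is no test, and a call is a 1.5-fold difference with at least 20 UMIs. The members, gene lists and limits were chosen with earlier results of these data known. All 41 members are named, and besides them up to 2 highest and 2 lowest genes of each list; Acta2, Tagln, Myh11, Rgs5, Pdgfra and Tcf21 stand as markers. No doublet caller was run; leaving out barcodes with markers of another class is an alternative. Of the alternatives, 12 were planned and 5 added after the data were seen. Positions come from GENCODE vM21 and promoter windows from RefSeq GRCm38.p6. The counting was tested on simulated data. Software was matplotlib 3.10.9, pandas 2.3.3, scipy 1.17.1 and numpy 2.4.6 in Python 3.11.15.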

Additional observations from a re-analysis of the deposited data

Results flagged for a closer look

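Some members differed in opposite directions in separate classes of barcodes; each difference between classes was not tested, since each group is 1 library, and its cause was not tested. Fn1 had a log2 ratio of 1.55 in fibroblasts, -0.94 in endothelial barcodes and -1.72 in macrophages. Col8a1 had 1.76 in fibroblasts and 2.08 in macrophages, on 6 sham UMIs, against -1.44 in endothelial barcodes. Col4a2 had 1.19 in fibroblasts and -1.10 in macrophages. Dcn had 0.79 in macrophages and -0.86 in endothelial barcodes, where it stood at 26 and 51 UMIs. Barcodes of both classes lay under the fibroblast limit, which Dcn helped to set, so its values describe the classes as chosen. In TAC macrophages Col8a1 stood at 0.93 of the fibroblast number of UMIs per Dcn UMI (0.682 to 1.24), and which cells its counts and those of Dcn there come from was not tested.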

How the results depend on the processing

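No paired analysis was possible because each group is 1 library. In fibroblasts all 21 higher and 5 lower members kept their direction under the alternatives run for single genes; 13 and 2 of them stayed past 1.5-fold in each, among them Postn, Timp1, Cthrc1, Efemp1 and Col6a6. The median log2 ratio ranged from 0.30 to 0.77. The log2 ratio of the summed members, 0.60, was 0.58 with up to 25% mitochondrial UMIs, 0.54 with raised class limits, 0.56 with fibroblasts chosen without members, 0.49 without barcodes of mixed markers, 0.51 thinned, 0.71 scaled by the median gene, 0.49 as a mean over barcodes, 0.93 with at most 5% mitochondrial UMIs, 0.45 without the deepest barcodes and 0.90 without Col1a1, Col3a1 and Dcn. The 5 lower members numbered 3 scaled by the median gene and 2 at 2-fold. They numbered 3 with at most 5% mitochondrial UMIs (13 sham barcodes) and 8 without the deepest. No share over all genes stands beside these counts.

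In endothelial barcodes the 2 higher members numbered 6 with up to 25% mitochondrial UMIs, 1 with raised limits, 11 with no minimum, 1 with 100 UMIs and 8 with at most 5% mitochondrial UMIs, and the 6 lower ones 11 with raised limits, 12 with no minimum, 3 with 100 UMIs and 2 at 2-fold. Of these counts, only those with 100 UMIs have shares over all genes, given further up. The others cannot be told from a shift of all genes. Col5a2 turned to 0.067 with up to 25% mitochondrial UMIs. With at most 5%, which leaves 4 sham barcodes, Fn1 turned to 2.02, Dcn to 0.58, Eln to 1.64 and Timp2 to 1.24.

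In macrophages the 18 higher members numbered 4 thinned and 9 with 100 UMIs, and the 4 lower ones 9 with raised limits. Here too, only the count with 100 UMIs has a share over all genes. The median turned to -0.0458 thinned, Col6a2 to -0.63 with raised limits, Col5a1 to -0.17 without the deepest barcodes, and, with at most 5% mitochondrial UMIs, Mfap4 to -1.49 and Mmp14 to -0.57. Thinning and the 5% limit leave fewer counts and 100 UMIs fewer genes; other causes were not tested.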
